A study of Mus musculus with 18 samples.

Results

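Mural cells are the pericytes of capillaries and the smooth muscle cells of larger vessels, and 10 genes that mark them were followed here across the regions of a mouse stroke. They were chosen by symbol, with earlier results of these data known. The pericyte genes were Pdgfrb, Rgs5, Abcc9, Notch3, Anpep and Cspg4. Genes of the contractile and filament apparatus were Acta2, Tagln, Myh11 and Des. All 10 symbols were among the 18922 genes of the deposited tables, and all 10 were among the 15329 genes with enough reads to be tested. Pericytes sit in the basement membrane of brain capillaries, where PDGF-BB released by endothelial cells acts on their receptor PDGFRB to recruit and keep them. Smooth muscle cells of arterioles hold actin and myosin bundles that set vessel width, and Notch signalling through NOTCH3 maintains them. Several of the genes are not restricted to mural cells: fibroblasts also make Pdgfrb, and their activated form makes Acta2 and Tagln, oligodendrocyte precursors make Cspg4, and some fibroblasts and myeloid cells make Anpep.

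The mice were adult males of 8 to 10 weeks on a C57Bl6 background, either wild type or knockout for Trem2, a receptor of microglia and macrophages. Every animal, the controls included, had a photothrombotic stroke: Rose Bengal at 50 mg/kg was given into the abdomen and a 3 mm circle of cortex was lit with a 125 mW laser of 525 nm, so the contralateral tissue is the uninjured side of an injured brain. At 7 days after injury the brains were stained with TTC and cut into infarct core, peri-infarct tissue and contralateral tissue, which with 2 genotypes gives 6 groups of 3 libraries. How the knockout was made is not described in the labels. Nor do they say whether the libraries of a group come from separate animals, so a p-value here covers the spread of these samples alone, and that spread may be technical.

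The RefSeq start regions of 7 of the 10 genes were matched in mouse assembly GRCm38.p6, each 300 bases long from 250 before to 50 after the start site. The 3 printed here belong to a contractile gene and a filament gene that were higher in the core and to the most abundant pericyte gene of intact tissue. Acta2 lies at chr19:34255324-34255623 on the minus strand, Des at chr1:75360042-75360341 on the plus strand and Rgs5 at chr1:169655251-169655550 on the plus strand, each written 5′ to 3′ along its own gene. Capitals mark matches to a near CArG box, the binding motif of serum response factor with 1 of its 6 middle bases not A or T.
Acta2: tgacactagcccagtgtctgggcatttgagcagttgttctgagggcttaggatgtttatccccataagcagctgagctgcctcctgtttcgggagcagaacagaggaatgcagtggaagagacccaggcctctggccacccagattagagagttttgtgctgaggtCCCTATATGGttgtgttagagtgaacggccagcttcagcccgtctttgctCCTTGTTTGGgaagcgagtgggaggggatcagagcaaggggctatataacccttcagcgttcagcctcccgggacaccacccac
Des: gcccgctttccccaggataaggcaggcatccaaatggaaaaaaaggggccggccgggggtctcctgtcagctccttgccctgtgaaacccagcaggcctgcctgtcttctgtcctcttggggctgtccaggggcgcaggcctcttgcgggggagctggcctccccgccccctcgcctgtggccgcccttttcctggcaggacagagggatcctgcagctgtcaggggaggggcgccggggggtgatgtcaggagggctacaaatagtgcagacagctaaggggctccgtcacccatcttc
Rgs5: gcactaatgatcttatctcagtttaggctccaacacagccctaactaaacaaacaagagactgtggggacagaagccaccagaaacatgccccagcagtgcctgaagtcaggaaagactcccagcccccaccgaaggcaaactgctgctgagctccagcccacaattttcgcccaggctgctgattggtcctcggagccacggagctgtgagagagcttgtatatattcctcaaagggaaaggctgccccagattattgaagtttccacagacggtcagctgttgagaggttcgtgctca

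Searches covered both strands of each start region. The strict CArG box was in none of the 7 start regions and in 1.57% of 27025 promoters of the same length, so the looser form was added after the data were examined. Acta2 held 2 near CArG boxes, CCCTATATGG from base -84 to -75 and CCTTGTTTGG from -34 to -25 relative to the start site, and the other 6 held none. That form was found in 8.58% of all promoters. The MCAT element CATTCC, in 14.6% of promoters, lay at -146 to -141 in Acta2 and at -219 to -214 in Abcc9. The core of the CSL motif of Notch signalling, TGGGAA, in 25.5% of promoters, lay at -27 to -22 in Acta2, overlapping the second near CArG box, and at -221 to -216 in Abcc9, overlapping the MCAT element there. These matches are letters in a window and no binding was measured.

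Total counts were 16993978 to 17691801 in 17 libraries and 18713770 in replicate 3 of the wild-type core, a library that stands apart. In that library the summed TPM (transcript abundance scaled by gene length and library, so comparable between genes) of 8 neuron markers was 13.0, against 3456 and 3928 in the other wild-type core libraries and 2615 to 2705 in the knockout core. Its myeloid markers summed to 22317, against 7505 and 9539. Results for the 10 genes and list counts that rest on it are therefore given with and without it. Trem2 was lower in the knockout in each region without overlap, at 0.337 to 8.24 CPM (counts scaled by library total after TMM adjustment, not by gene length) against 20.5 to 920 in the wild type. Expected counts behind the 10 genes were lowest for Des (10 to 99), Myh11 (34 to 81) and Abcc9 (43 to 252), and lay between 47 and 5033 for the others.

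On the TPM scale, Rgs5, which encodes a regulator of G protein signalling abundant in brain pericytes, led the 10 genes in intact tissue. It made up 45.0% of their summed TPM in wild-type contralateral tissue and 47.4% in knockout contralateral tissue, at mean TPM of 36.7 and 33.6. The next genes in contralateral tissue were Acta2, Tagln and Pdgfrb at 10.6, 9.39 and 8.64 in the wild type, and 8.58, 7.8 and 7.71 in the knockout, whose libraries overlapped. Des was lowest at 0.833 and 0.58. In the knockout core Acta2, the smooth muscle actin, and Tagln, an actin-binding protein of smooth muscle, stood above Rgs5 in every library, at mean TPM of 70.5 and 70.2 against 40.0. Libraries of Acta2 and Tagln overlapped, and both lay above those of Rgs5. In the wild-type core the order rested on 1 library. Acta2 TPM was 32.08, 40.72 and 123.49 and Tagln 30.90, 30.32 and 117.87, against 49.55, 40.40 and 15.39 for Rgs5, so Rgs5 was above Tagln in replicates 1 and 2 and far below it in replicate 3. The wild-type means of 65.4, 59.7, 55.5, 35.1 and 23.7 for Acta2, Tagln, Anpep, Rgs5 and Cspg4 belong to neighbours whose libraries overlap. The mean share of Rgs5 in the summed TPM was 18.1% in the wild-type core and 17.1% in the knockout core. Single libraries ranged from 3.6% to 28.3% in the wild type, lowest in replicate 3, and from 15.0% to 21.2% in the knockout.

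**Figure D1:**
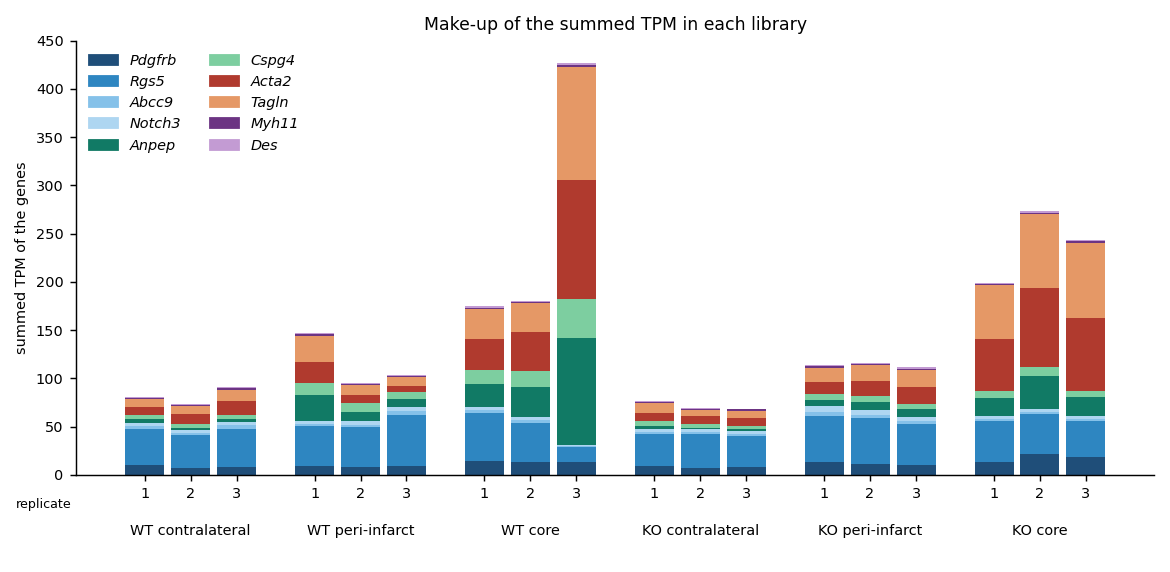
Stacked TPM of the 10 genes in each of the 18 libraries, by genotype (WT, wild type, and KO, Trem2 knockout), region and replicate. Contralateral sums lie between 68.2 and 90.7 and hold Rgs5 as their widest band, whereas core sums reach 175 to 427, with wide Acta2 and Tagln bands in the knockout and in wild-type replicate 3.

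The summed TPM of the 10 genes was 73.4 to 90.7 in wild-type contralateral tissue, 94.8 to 147 in peri-infarct tissue and 175, 180 and 427 in the core, the last in replicate 3. In the knockout it was 68.2 to 76.4, 111 to 115 and 199 to 273. Sums did not overlap between regions of either genotype. In bulk tissue a change in the number of cells of a type and a change in RNA per cell cannot be told apart.

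Fold changes below are log2 differences of CPM ± SE from edgeR's quasi-likelihood test with 3 libraries per group, and a gene is called where its p, adjusted by Benjamini-Hochberg over all tested genes, is under 0.05. In the wild type 6 of the 10 genes were called higher in the core than contralaterally and 0 lower, where 29.1% of all tested genes were called higher and 11.5% lower. With only these wild-type groups in the fit, 0 of the 10 genes and 0% of all genes were called higher. In the knockout 5 of 10 were higher and 0 lower, where 19.7% of all genes were higher and 3.31% lower. The 5 genes of the knockout, Pdgfrb, Anpep, Acta2, Tagln and Des, were all among the 6 of the wild type, whose further gene was Cspg4. The median log2 fold change of the 10 genes was 1.37 for wild-type and 1.18 for knockout tissue, against -0.03 and -0.01 over all genes. With wild-type core replicate 3 left out it was 0.79 for wild-type and 1.18 for knockout tissue, against -0.02 over all genes in both. Without wild-type core replicate 3 the calls were 6 of 10 in the wild type (23.6% of all genes higher), with Rgs5 in and Des out. They were then 7 of 10 in the knockout (29.6%), with Rgs5 and Cspg4 added, since all groups share 1 estimate of spread.

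**Figure D2:**
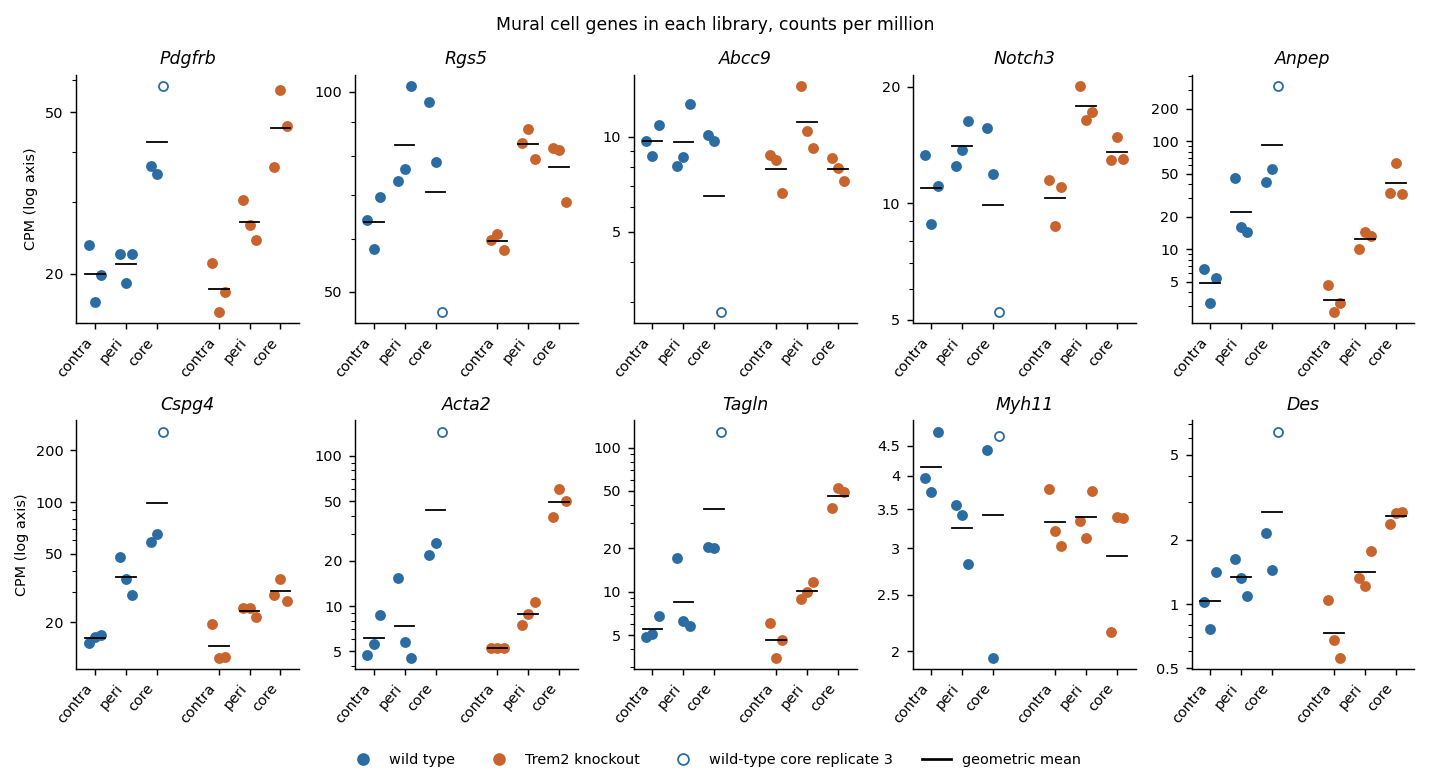
CPM of each gene in the 18 libraries on log axes, by region and genotype, with wild-type core replicate 3 as an open circle and a line at the geometric mean of each group. Acta2, Tagln and Anpep climb in the core of both genotypes, whereas Rgs5, Abcc9, Notch3 and Myh11 show no such climb and the open circle is the lowest point of the first 3 of them.

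Pdgfrb, the receptor for PDGF-BB on pericytes and fibroblasts, rose in the core of both genotypes. Its CPM was 23.5, 17 and 19.8 in wild-type contralateral tissue and 36.9, 35.3 and 58.1 in the wild-type core, the last in replicate 3. Knockout CPM was 21.2, 16.1 and 18 contralaterally and 36.6, 56.7 and 46.2 in the core. Core libraries of both genotypes lay above all contralateral ones. The log2 fold change was 1.11 ± 0.21 in the wild type (edgeR adjusted p = 0.0011) and 1.33 ± 0.21 in the knockout (edgeR adjusted p = 0.00046), and 0.84 ± 0.17 in the wild type without replicate 3 (edgeR adjusted p = 0.0014). On the TPM scale replicate 3 did not stand out, at 13.68 against 14.35 and 13.51 in the other wild-type core libraries. Relative to Pecam1, an endothelial adhesion molecule, Pdgfrb TPM was 0.605 to 0.731 in wild-type contralateral tissue and 0.939 to 1.05 in the wild-type core, and 0.696 to 0.866 and 0.723 to 1.31 in the knockout, where the libraries overlapped.

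Rgs5 moved far less. Its CPM was 64.1, 58.1 and 69.5 in wild-type contralateral tissue and 96.6, 78.3 and 46.7 in the wild-type core, where replicate 3 was the lowest of all libraries. Knockout CPM was 59.9, 61.2 and 57.8 contralaterally and 82.3, 81.6 and 68.2 in the core, without overlap. The wild-type difference was 0.21 ± 0.20 (edgeR adjusted p = 0.39) and that of the knockout 0.38 ± 0.20 (edgeR adjusted p = 0.19). Without wild-type core replicate 3 both were called, at 0.45 ± 0.14 (edgeR adjusted p = 0.016) and 0.37 ± 0.12 (edgeR adjusted p = 0.019). On log2(TPM + 1) the wild-type value with replicate 3 was -0.21 (limma adjusted p = 0.53), so its sign depends on the scaling. On that scale the median of all genes was -0.34 in wild-type core against contralateral tissue and -0.12 in the knockout.

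Abcc9, which encodes the sulphonylurea receptor subunit of the pericyte potassium channel, and Notch3, the mural cell Notch receptor, were not called in the core of either genotype. Abcc9 CPM was 9.72, 8.68 and 10.9 in wild-type contralateral tissue and 10.1, 9.7 and 2.79 in the core, and 6.63 to 8.75 and 7.24 to 8.58 in the knockout. Notch3 CPM was 13.3, 8.86 and 11.1 in wild-type contralateral tissue and 15.6, 11.9 and 5.25 in the core, and 8.74 to 11.5 and 12.9 to 14.8 in the knockout, where its libraries did not overlap. Replicate 3 held the lowest value of both genes. The wild-type differences without it were 0.01 ± 0.21 for Abcc9 and 0.31 ± 0.18 for Notch3. The Notch3 difference in the knockout was 0.38 ± 0.28 (edgeR adjusted p = 0.34). Within libraries other than replicate 3 the ratio of Notch3 to Rgs5 TPM lay between 0.0701 and 0.118 in all regions. The ratio of Abcc9 to Rgs5 was 0.0645 to 0.0839 contralaterally and 0.0525 to 0.0663 in the core, again without replicate 3.

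Anpep, the aminopeptidase CD13 of pericytes, had the largest fold change of the 10 genes in the core. Its CPM was 6.55, 3.17 and 5.46 in wild-type contralateral tissue and 42.4, 56 and 326 in the core, the last in replicate 3. Knockout CPM was 4.66, 2.65 and 3.2 contralaterally and 33, 63.2 and 32.6 in the core. The log2 fold change was 4.80 ± 0.77 in the wild type (edgeR adjusted p = 0.00037), 3.27 ± 0.48 without replicate 3 (edgeR adjusted p = 0.00011) and 3.61 ± 0.74 in the knockout (edgeR adjusted p = 0.0028). Every core library lay above every contralateral library of its genotype.

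Cspg4, the NG2 proteoglycan of pericytes and oligodendrocyte precursors, rose in the wild-type core. Its CPM was 15.2, 16.4 and 17 contralaterally and 59, 64.9 and 257 in the core, and 19.7, 12.5 and 12.6 against 29, 35.6 and 26.8 in the knockout. Neither genotype had overlapping libraries. The wild-type log2 fold change was 2.97 ± 0.46 (edgeR adjusted p = 0.0003) and 1.93 ± 0.20 without replicate 3 (edgeR adjusted p = 3e-06). The knockout value of 1.03 ± 0.44 was not called (edgeR adjusted p = 0.11), and was called at 1.02 ± 0.19 without that wild-type library (edgeR adjusted p = 0.00028). The summed TPM of 8 oligodendrocyte precursor markers was 276 to 302 in wild-type contralateral tissue and 138, 305 and 326 in the core, with replicate 3 the lowest. Cspg4 was highest in that library, and the part of precursors in the Cspg4 values was not tested. Tested singly, 4 of the 8 markers were called higher in the wild-type core and 0 lower (29.1% of all genes higher). Without replicate 3 there were 2 higher and 0 lower (23.6%).

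The contractile genes divided. Acta2 CPM was 4.75, 5.63 and 8.69 in wild-type contralateral tissue and 21.8, 26.2 and 145 in the core, the last in replicate 3. Knockout CPM was 5.29, 5.3 and 5.28 contralaterally and 39.4, 60.4 and 50.1 in the core. Both sets of core libraries lay above all contralateral ones. The log2 fold change was 3.33 ± 0.66 in the wild type (edgeR adjusted p = 0.0015) and 3.24 ± 0.66 in the knockout (edgeR adjusted p = 0.0026), and 1.92 ± 0.38 in the wild type without replicate 3 (edgeR adjusted p = 0.0011). Tagln CPM was 4.86, 5.1 and 6.81 against 20.5, 20.2 and 129 in the wild type, and 6.1, 3.5 and 4.61 against 38, 52.1 and 49.5 in the knockout. The libraries again did not overlap. Its log2 fold changes were 3.33 ± 0.66 (edgeR adjusted p = 0.0015) and 3.29 ± 0.66 (edgeR adjusted p = 0.0023), and 1.86 ± 0.36 without replicate 3 (edgeR adjusted p = 0.00098). Within single libraries the ratio of Tagln to Acta2 TPM stayed between 0.65 and 1.35 in all 18. Tagln overlaps Pcsk7 in the annotation of GRCm38.p6, and Pcsk7, a protein convertase, differed between core and contralateral tissue by 0.64 ± 0.16 (wild type, called) and 0.38 ± 0.16 (knockout, not called). Pcsk7 was called in both without wild-type core replicate 3, at 0.33 ± 0.07 and 0.37 ± 0.06.

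Myh11, the heavy chain of smooth muscle myosin and the gene of this set most restricted to smooth muscle, did not follow Acta2 and Tagln. Its CPM was 3.96, 3.75 and 4.76 in wild-type contralateral tissue and 4.42, 1.95 and 4.67 in the core, and 3.8, 3.21 and 3.03 against 2.16, 3.4 and 3.38 in the knockout. Core and contralateral libraries overlapped in both genotypes. The differences were -0.18 ± 0.28 (edgeR adjusted p = 0.60) and -0.17 ± 0.28 (edgeR adjusted p = 0.66). On log2(TPM + 1) the wild-type value was -0.38 (limma adjusted p = 0.024), a call shared by 40.9% of all genes, whose median was -0.34 on that scale. The ratio of Acta2 to Myh11 TPM was 4.53 to 8.56 in contralateral libraries of both genotypes, 23.9, 63.6 and 110 in the wild-type core and 55.6 to 81.4 in the knockout core.

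Des, the intermediate filament desmin, was the least abundant of the 10 contralaterally. Its CPM was 1.02, 0.763 and 1.41 in wild-type contralateral tissue and 2.15, 1.44 and 6.42 in the core, and 1.04, 0.676 and 0.562 against 2.38, 2.67 and 2.7 in the knockout. The wild-type groups were separated only by 1.44 against 1.41 CPM, while the lowest knockout core library was above the highest contralateral one by 2.38 against 1.04. The log2 fold change was 1.64 ± 0.46 in the wild type (edgeR adjusted p = 0.013) and 1.76 ± 0.47 in the knockout (edgeR adjusted p = 0.015). Without replicate 3 the wild-type value was 0.75 ± 0.32 and not called (edgeR adjusted p = 0.078).

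**Figure D3:**
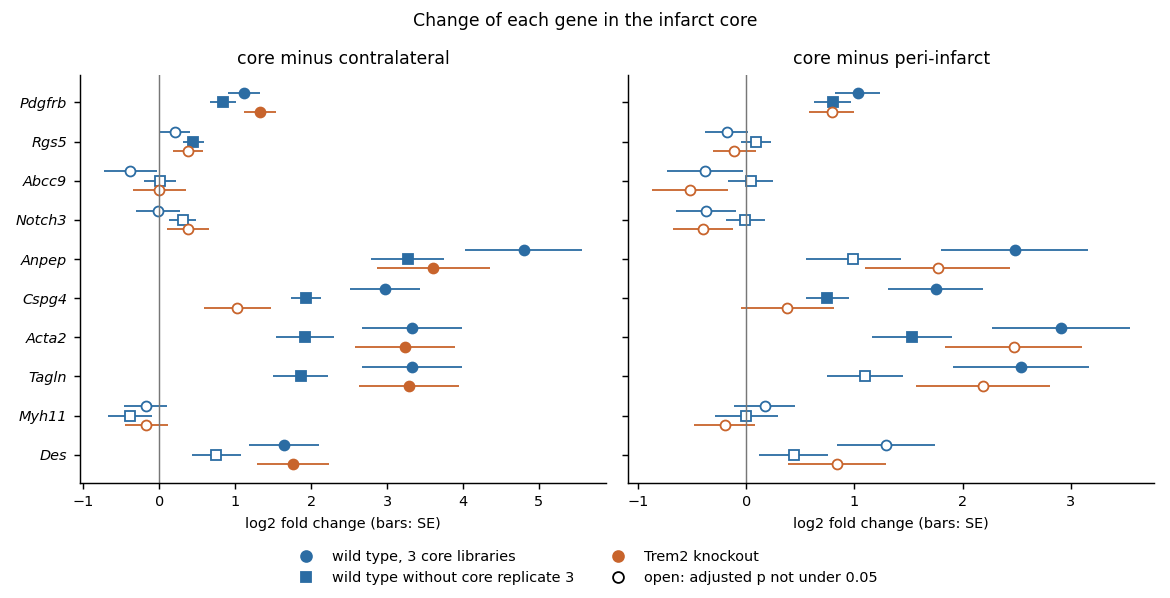
Log2 fold change of each gene in the core against contralateral tissue (left) and peri-infarct tissue (right), in the wild type with and without core replicate 3 and in the knockout, with bars of 1 SE. Filled symbols passed the test. Rgs5, Abcc9, Notch3 and Myh11 lie between -0.52 and 0.45. Of them only the wild-type square of Rgs5 against contralateral tissue is filled. The wild-type squares of Acta2 and Tagln lie below the circles of both genotypes.

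Some of the 10 genes were also higher in the core than in the tissue around it. Rgs5, Abcc9 and Notch3 were not called. Their differences were -0.18, -0.38 and -0.37 in the wild type and -0.11, -0.52 and -0.4 in the knockout. Without core replicate 3 the wild-type values were 0.09, 0.04 and -0.01. Knockout core libraries of Abcc9 and Notch3 lay below all knockout peri-infarct ones. In the wild type 5 of 10 genes were called higher in the core than in peri-infarct tissue (12.3% of all genes): Acta2 at 2.91 ± 0.64, Tagln at 2.54 ± 0.63, Anpep at 2.48 ± 0.68, Cspg4 at 1.75 ± 0.44 and Pdgfrb at 1.03 ± 0.21, with edgeR adjusted p between 0.034 and 0.037. Libraries of Anpep overlapped, with a lowest core CPM of 42.4 against a highest peri-infarct CPM of 45.4. With the replicate number as a block, with limma-voom and with only these 2 groups in the fit, 0 of the 10 genes and 0% of all genes were called higher. Without core replicate 3 there were 3 (4.88% of all genes), namely Acta2 at 1.53 ± 0.37, Pdgfrb at 0.80 ± 0.17 and Cspg4 at 0.75 ± 0.20. The count also depended on the peri-infarct libraries, with 1 of 10 called without replicate 1 and 0 without replicate 2 or replicate 3. In the knockout 0 of 10 genes were called, as were 0% of all genes, although 4 of 10 and 2857 of all genes had an unadjusted p under 0.05. DESeq2 called 2 of the 10 higher there, Pdgfrb and Acta2 (4.4% of all genes), and limma-voom 0 (0.163%). Without wild-type core replicate 3 edgeR called 5 of the 10 in the knockout (24.3% of all genes): Acta2 at 2.53 ± 0.35, Tagln at 2.26 ± 0.32, Anpep at 1.83 ± 0.42, Des at 0.90 ± 0.28 and Pdgfrb at 0.85 ± 0.16.

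In peri-infarct tissue the changes from the contralateral side were smaller. With all libraries 0 of 10 genes were called in the wild type (3.27% of all genes higher) and 0 of 10 in the knockout (4.42%), with 2 and 4 of the 10 at an unadjusted p under 0.05. DESeq2 called 1 in the wild type, Anpep, where it called 5.03% of all genes higher, and 0 in the knockout, where it called 6.48%. With limma-voom 0 were called in both (1.07% and 1.9% of all genes). Without wild-type core replicate 3 the wild type had 2 calls (14.2% of all genes), Anpep at 2.28 ± 0.45 and Cspg4 at 1.18 ± 0.19. The knockout then had 6 (13.7%): Anpep at 1.78 ± 0.47, Tagln at 1.03 ± 0.35, Notch3 at 0.71 ± 0.16, Cspg4 at 0.57 ± 0.19, Pdgfrb at 0.48 ± 0.16 and Rgs5 at 0.42 ± 0.12. Peri-infarct CPM of Anpep was 45.4, 16.2 and 14.6 in wild-type libraries and 10, 14.4 and 13.4 in knockout ones, all above the contralateral libraries. Wild-type peri-infarct replicate 1 was the highest of its group for Anpep, Acta2 (15.3 against 5.73 and 4.55), Tagln (17.1 against 6.25 and 5.75) and Cspg4 (48.3 against 35.7 and 29). The same library had 507 of summed TPM over 11 fibroblast markers, against 149 and 141 in the other wild-type peri-infarct libraries, and the part of those cells in its values was not tested. Rgs5, Abcc9 and Notch3 were instead highest in replicate 3 of that group, at 102, 12.7 and 16.3. In the knockout Notch3 CPM was 20.1, 16.4 and 17.2 in peri-infarct tissue, above its contralateral libraries at 8.74 to 11.5 and its core libraries at 12.9 to 14.8. Choroid plexus markers differed widely among these knockout libraries, with summed TPM of 41.6 to 7630 in peri-infarct and 25.8 to 8825 in contralateral tissue, and their part was not tested. The peri-infarct and core comparisons of a genotype share its contralateral libraries.

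Between genotypes 0 of the 10 genes were called in each of the 3 regions. Over all genes 0.00652% were called contralaterally, 0.00652% in peri-infarct tissue and 0.013% in the core. The difference between genotypes of the response to injury was called for 0 of the 10 genes and 0% of all genes, in peri-infarct tissue and in the core. At an unadjusted p under 0.05 there were 0, 0 and 2 of the 10 genes in the 3 regions, and 0 and 1 for the differences of response. Among these 5 comparisons DESeq2 called 1 of the 10, Cspg4 in the core, where it called 0.594% of all genes, and limma-voom 0 of the 10 (0.013% of all genes in the core).

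Cspg4 was the gene with the clearest separation. Knockout core libraries at 29, 35.6 and 26.8 CPM lay below the wild-type core at 59, 64.9 and 257, and knockout peri-infarct libraries at 24.2, 24.3 and 21.5 lay below the wild type at 48.3, 35.7 and 29. Contralateral libraries of both genotypes overlapped. The core difference was -2.06 ± 0.44 (edgeR adjusted p = 0.22) and -1.00 ± 0.20 without wild-type core replicate 3, which was called (edgeR adjusted p = 0.021) where 3.06% of all genes were called. On log2(TPM + 1) it was -1.38, while the median of all genes was 0.22 on that scale. The difference of the core response was -1.94 ± 0.62 (edgeR adjusted p = 0.98) and -0.91 ± 0.27 without that library (edgeR adjusted p = 0.36), so a genotype effect on the response was not shown. The peri-infarct difference was -0.69 ± 0.43 (edgeR adjusted p = 1.0). In TPM the ratio of Cspg4 to Pdgfrb was 1.03, 1.21 and 2.91 in the wild-type core and 0.378 to 0.524 in the knockout core, and 0.834 to 1.41 against 0.509 to 0.607 in peri-infarct tissue. Of the 8 oligodendrocyte precursor markers 0 were called between genotypes in the core, with or without replicate 3. Of all genes only 0.013% and 3.06% were called there, so 0 of 8 cannot tell these markers from other genes. Myeloid markers summed to 2475 to 3062 in knockout and 3326 to 5428 in wild-type peri-infarct tissue. In the core their sums overlapped, at 6840 to 10188 in the knockout and 7505, 9539 and 22317 in the wild type, the last in replicate 3. The part of precursors and of myeloid cells in the Cspg4 difference was not tested.

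For Acta2 and Tagln the sign of the genotype difference in the core depended on 1 library and on the scale. With all libraries Acta2 differed by -0.36 ± 0.59 and Tagln by -0.28 ± 0.59. Without wild-type core replicate 3 the values were 1.08 ± 0.37 (edgeR adjusted p = 0.13) and 1.21 ± 0.35 (edgeR adjusted p = 0.08), the 3 knockout libraries of each gene being above the remaining wild-type pair. On log2(TPM + 1) with all libraries they were 0.34 and 0.52. Anpep differed by -1.72 ± 0.67 in the core with all libraries and -0.17 ± 0.44 without replicate 3. In peri-infarct tissue its knockout libraries, at 10 to 14.4 CPM, lay just below the wild type at 14.6 to 45.4, with a difference of -1.01 ± 0.67 (edgeR adjusted p = 1.0). The core differences of Pdgfrb, Rgs5, Abcc9, Notch3, Myh11 and Des lay between -0.36 and 0.31 with all libraries, and between -0.30 and 0.54 without replicate 3, with 0 of the 6 called in either case. Des turned from -0.36 ± 0.43 to 0.54 ± 0.31, with the knockout libraries then all higher, and Pdgfrb went from 0.10 ± 0.20 to 0.39 ± 0.17.

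Other genes of mural cells and of the pathways that act on them were read from lists chosen with earlier results of these data known. Their counts in the core stand against the 29.1% of all genes called higher in wild-type core and 19.7% in knockout core, or 23.6% and 29.6% without wild-type core replicate 3. Fold changes of single list genes, here and below, include that library unless stated otherwise. Of 17 further pericyte genes the wild-type core had 7 called higher than contralateral tissue and 0 lower, with a median log2 fold change of 0.19. In the knockout 6 of 17 were higher, all among those 7, with a median of 0.11. Without replicate 3 both genotypes had the same 7. Cd248, the endosialin of activated pericytes and fibroblasts, had TPM of 3.16, 1.59 and 2.5 contralaterally and 10.43, 6.45 and 12.03 in the wild-type core, a log2 fold change of 2.49 ± 0.40 (edgeR adjusted p = 0.00038), and 2.22 ± 0.40 in the knockout. Tbx18, a mural cell transcription factor, rose by 2.60 ± 0.50 and 2.97 ± 0.50, and P2ry14, a receptor for UDP-glucose, by 1.42 ± 0.24 and 1.19 ± 0.24. Also called higher were Foxc1, Foxf2 and Ifitm1 in both genotypes and Ndufa4l2 in the wild type. A further 4 genes, chosen after their values were seen because they are used to mark brain pericytes, were not called in either genotype. Nor were they called without wild-type core replicate 3. The values that follow include that library, and these 4 picked genes do not stand for the whole list. Their wild-type and knockout differences were -0.15 ± 0.35 and -0.28 ± 0.34 for Kcnj8, the channel partner of Abcc9, -0.33 ± 0.23 and 0.01 ± 0.23 for Vtn, -0.57 ± 0.54 and -0.18 ± 0.54 for Atp13a5, and -0.07 ± 0.28 and 0.03 ± 0.29 for Higd1b.

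Of 19 tested smooth muscle genes other than the 4 above, 8 were higher in the wild-type core and 0 lower (median 0.16), and 7 were higher and 1 lower in the knockout (median 0.14). The 7 of the knockout were among the 8 of the wild type. Without wild-type core replicate 3 the wild type had 6 of 19 higher, a share close to that of all genes, and the knockout 7 higher and 2 lower. Ednra, an endothelin receptor of smooth muscle and pericytes, rose by 1.44 ± 0.18 in the wild type (edgeR adjusted p = 0.00011) and 1.34 ± 0.18 in the knockout (edgeR adjusted p = 0.00022). Cald1, an actin-binding caldesmon, rose by 1.95 ± 0.33 and 1.81 ± 0.33. Actg2, an actin of enteric smooth muscle close in sequence to Acta2, had expected counts of 1, 0 and 1 in wild-type contralateral libraries and 41, 35 and 168 in the wild-type core, and 2, 0 and 2 against 55, 94 and 85 in the knockout, so a fitted fold change depends on the prior count. Shared reads between Actg2 and Acta2 cannot be told apart in estimated counts.

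The PDGF list held 5 genes, of which 3 were higher and 0 lower in the wild-type core, and 3 higher and 1 lower in the knockout, with 2 of the higher genes, Pdgfc and Pdgfra, in both. The counts without wild-type core replicate 3 were 1 higher in the wild type, and 4 higher and 1 lower in the knockout. Pdgfb, the endothelial ligand of PDGFRB, had TPM of 16.72, 21.57 and 26.98 contralaterally and 29.68, 26.78 and 41.16 in the wild-type core, with a log2 fold change of 1.14 ± 0.28 (edgeR adjusted p = 0.0067). Those TPM values overlapped, and without replicate 3 the log2 fold change was 0.56 ± 0.15 (edgeR adjusted p = 0.0083). The knockout value was 0.62 ± 0.28 (edgeR adjusted p = 0.13), called without that wild-type library at 0.61 ± 0.14 (edgeR adjusted p = 0.0016). Pdgfc, a ligand of the alpha receptor, rose by 0.54 ± 0.20 and 0.68 ± 0.20 in wild type and knockout, and Pdgfra, that receptor, by 0.35 ± 0.12 and 0.44 ± 0.12. In the wild type without replicate 3 neither was called.

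Of 13 Notch genes other than Notch3, 6 were higher and 0 lower in the wild-type core (median 0.59), and 5 higher and 0 lower in the knockout (median 0.18), the 5 being among the 6. Leaving out wild-type core replicate 3, the wild type had 5 higher and 1 lower (median 0.35) and the knockout 5 higher and 4 lower (median 0.17), where 16.6% and 27.8% of all genes were lower. The lower genes, named after their values were seen, were the ligand gene Jag2 in both, at -0.30 ± 0.11 and -0.44 ± 0.10, and in the knockout Dll1, another ligand gene, at -0.63 ± 0.21 and the target genes Hey1 at -0.22 ± 0.08 and Nrarp at -0.91 ± 0.16. The 3 other receptors were all among the genes called higher in both genotypes, with and without that library. Notch2 rose by 1.21 ± 0.19 and 1.17 ± 0.19 in wild type and knockout, and Notch1 by 0.63 ± 0.12 and 0.49 ± 0.12. Notch4, best known from endothelium, had TPM of 2.27, 1.86 and 2.37 contralaterally and 9.23, 12.76 and 35.61 in the wild-type core, and of 1.53, 1.81 and 1.4 against 4.35, 5.66 and 4.46 in the knockout. Its log2 fold change was 3.78 ± 0.57 in the wild type, 2.50 ± 0.26 without replicate 3, and 1.74 ± 0.54 in the knockout. Between genotypes in the core Notch4 differed by -2.46 ± 0.53 (edgeR adjusted p = 0.22) and, without replicate 3, by -1.17 ± 0.24, which was called (edgeR adjusted p = 0.027), the same pattern of calls as Cspg4.

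**Figure D4:**
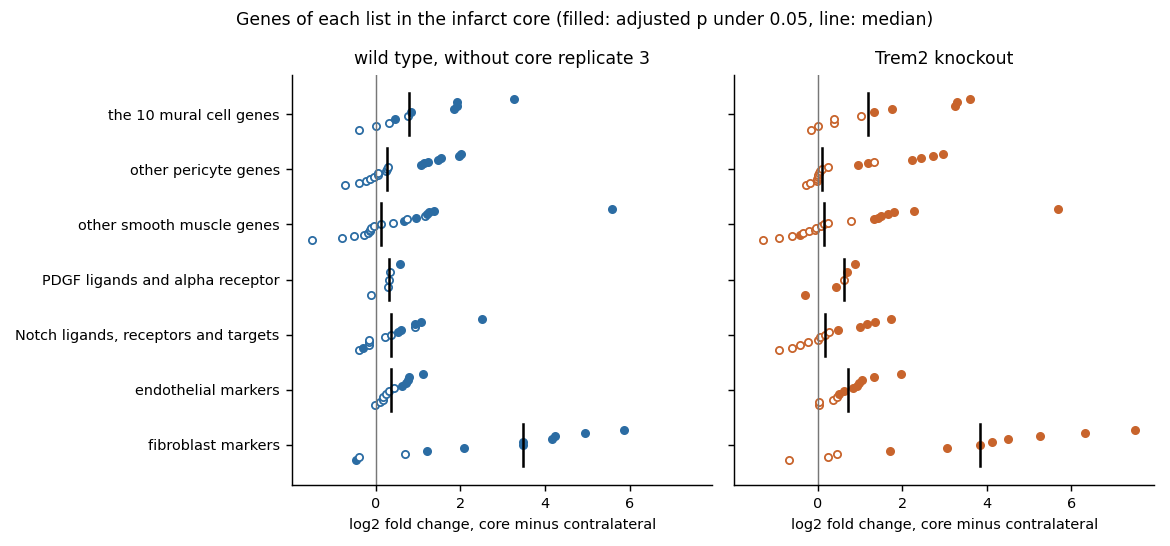
Log2 fold change of core against contralateral tissue for the 10 genes and every tested gene of the other mural, PDGF, Notch, endothelial and fibroblast lists, in the wild type without core replicate 3 and in the knockout, filled where called and with a line at each list's median. Fibroblast markers reach the highest medians, 3.47 and 3.84, and both mural lists hold called genes beside many genes near 0.

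Markers of the cells around mural cells moved with region as well. In the core 29.1% of all genes were higher and 11.5% lower in the wild type, and 19.7% and 3.31% in the knockout. Without wild-type core replicate 3 these shares were 23.6% and 16.6% in the wild type, and 29.6% and 27.8% in the knockout. Some of the smaller counts below lie near these shares. Of 12 endothelial markers 7 were higher in the wild-type core (median 0.50) and 8 in the knockout core (median 0.72), with 0 lower. In wild-type and knockout peri-infarct tissue 0 and 5 were higher, where 3.27% and 4.42% of all genes were higher. The core counts without wild-type core replicate 3 were 5 and 8 (medians 0.37 and 0.71), and the peri-infarct counts 1 and 7. The shares of all genes higher in peri-infarct tissue were then 14.2% and 13.7%. Cdh5, the VE-cadherin of endothelial junctions, rose in the core by 1.36 ± 0.21 and 1.98 ± 0.22, Kdr, a VEGF receptor, by 0.87 ± 0.14 and 1.04 ± 0.14, and Emcn, a sialomucin of veins and capillaries, by 0.93 ± 0.18 and 0.97 ± 0.18. Fibroblast markers changed most. Of 11 tested 9 were higher in the wild-type core (median 4.36) and 8 in the knockout core (median 3.84), with 0 lower. Without replicate 3 the count was 8 higher and 1 lower in both. Fn1, fibronectin, rose by 4.51 ± 0.57 and 4.12 ± 0.56, Postn, periostin of scar tissue, by 4.85 ± 0.71 and 4.50 ± 0.70, and Lum, a collagen-binding proteoglycan, by 4.36 ± 0.63 and 3.84 ± 0.62. The summed TPM of the fibroblast list without Thy1, which neurons also make, was 76 to 116 in wild-type contralateral libraries and 898, 986 and 1928 in the core, and 64.1 to 90.6 against 985 to 1819 in the knockout. Of 9 myeloid markers 9 were higher in the core of both genotypes, as were 4 of 8 oligodendrocyte precursor markers, of which 2 (wild type) and 4 (knockout) were higher without wild-type core replicate 3. Of 8 neuron markers 0 were called in either genotype with all libraries and 7 were lower in both without wild-type core replicate 3. Of 6 astrocyte markers 0 and 1 were higher in wild type and knockout (2 and 3 without that library), and of 6 oligodendrocyte markers 0. Of 6 choroid plexus markers 0 and 2 were lower (0 and 4 without it). Of 4 tested skeletal muscle markers 1 was higher in each genotype, and the list summed to a TPM of 9.01 to 18.9 over all groups, with Ckm listed at 0 in both contralateral groups. Fibroblasts and myeloid cells can make several of the 10 genes, and their part in the core values was not tested.

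**Figure D5:**
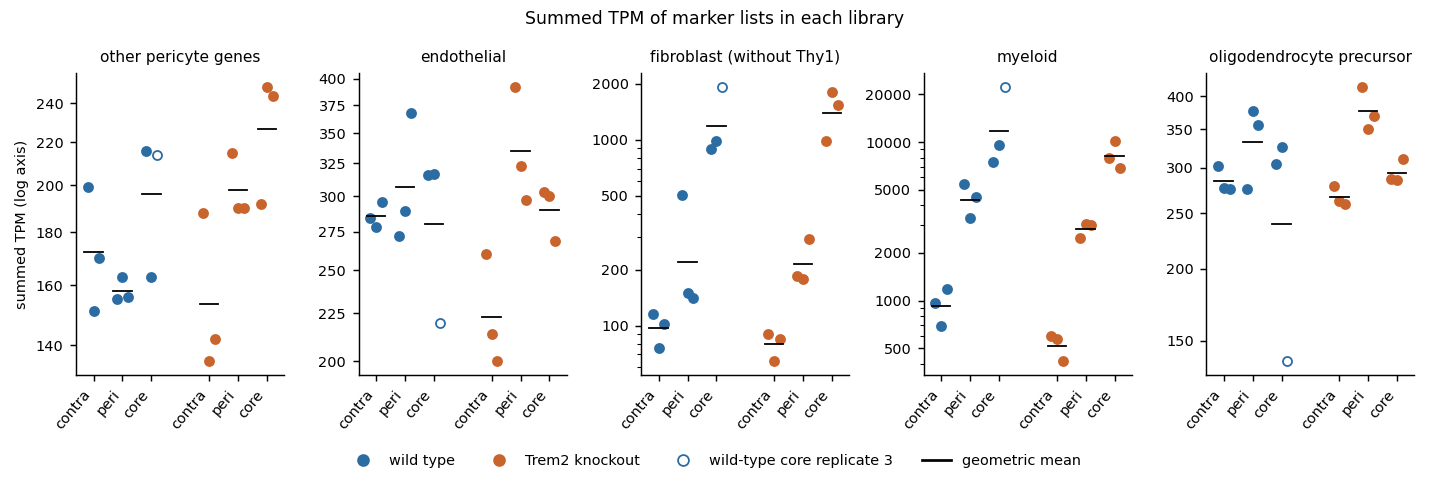
Summed TPM of 5 marker lists in the 18 libraries on log axes, by region and genotype, with wild-type core replicate 3 as an open circle and a line at the geometric mean. The fibroblast and myeloid sums rise from contralateral tissue to core in both genotypes, and the pericyte sum varies only between 135 and 249.

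The summed TPM of the 17 further pericyte genes, 151 to 199 in wild-type contralateral libraries and 163, 216 and 214 in the core, overlapped between the regions. In the knockout it was 135 to 188 contralaterally and 192 to 249 in the core, without overlap.

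The tested genes whose pattern was most like each of 4 members were found by Pearson r of log2 CPM over the 17 libraries other than wild-type core replicate 3, among 13479 genes whose mean log2 CPM was 1 or more. These libraries share 3 regions that differ strongly, so many genes reach a high r, and the values are descriptions. For Acta2 they were Fbln2, an extracellular matrix fibulin, at 0.982, Tagln at 0.98, Cyp1b1 at 0.98 and Fstl1 at 0.976. For Tagln they were Fbln2 at 0.982, Bgn, the proteoglycan biglycan, at 0.98, Acta2 at 0.98 and Col5a2, a fibrillar collagen, at 0.98. Acta2 and Tagln thus stood in each other's first 4. For Pdgfrb they were Flii at 0.968, Cavin1, a caveolar protein, at 0.966, Tbc1d2b at 0.963 and Lama4, a laminin of vessel basement membranes, at 0.959. Pdgfrb reached 0.917 with Tagln, 0.893 with Acta2 and 0.491 with Rgs5. For Rgs5 they were AU021092 at 0.931, Lag3 at 0.927, Lpcat1 at 0.924 and Tnfrsf19 at 0.917, and its highest r with another of the 10 genes was 0.779 with Notch3. With all 18 libraries the r of Rgs5 with its 4 genes fell to between 0.484 and 0.791, whereas those of Acta2 and Tagln stayed at or above 0.962.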

How the data were processed

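Polyadenylated RNA of 18 tissue samples was sequenced, and all sample columns were used. The authors deposited expected counts per gene, which are estimated and need not be whole (3678 of 18922 genes, 19.4%, were not; of the 10 genes only Tagln), so they were rounded before testing, although whole counts had been assumed when the tests were chosen. The authors also deposited TPM values, used for levels, ratios, sums and alternatives. GRCm39 (mm39), Subread, Bowtie2 and HISAT2 2.0.4 are listed, with no role or order, per the submitters' processing notes. The tool that estimated the counts and any use of strand are not given in the sources used here, so the overlapping pairs of Tagln with Pcsk7, and of Abcc9, Des and Notch3 with noncoding genes, cannot be told apart by strand. Start regions come from RefSeq on GRCm38.p6, another assembly, and Tagln, Myh11 and Pdgfrb were not matched there.

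The rounded values went into a quasi-likelihood test of edgeR 4.0.16 under R 4.3.3 (filterByExpr, TMM, robust quasi-likelihood fit, a mean per group, 12 residual degrees of freedom), over 11 comparisons. Each SE was derived from F as |log2 fold change| / sqrt(F). CPM uses TMM-scaled totals, with TMM factors of 0.967 to 1.07 in 17 libraries and 0.824 in wild-type core replicate 3. Alternatives used DESeq2 1.42.0, limma 3.58.1 (voom, and trend on log2(TPM + 1) and log2(TPM + 0.1)), other filters, fewer groups, a replicate block and each library left out in turn. An exact permutation of 3 against 3 libraries cannot give a 2-sided p under 0.1 and was not used.

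The 10 genes and the 13 lists were chosen with earlier results of these data known. All 10 genes are named, with the 3 genes of smallest p in wild-type core against contralateral tissue from the lists described, the 4 genes most alike to each of 4 members, overlapping genes and Trem2. Within a genotype, deviations of same-numbered libraries were all positively correlated only for wild-type peri-infarct against contralateral tissue. Those values were 0.398, 0.436 and 0.386. Wild-type peri-infarct and core libraries numbered 2 reached 0.417, so neither a pairing nor its absence is shown. The labels do not state a pairing.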

Additional observations from a re-analysis of the deposited data

How the results depend on the processing

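The count of the 10 genes called moved by over 1.5 times, or away from 0, as follows, with the share of all genes called higher under that setting in brackets. In wild-type core against contralateral tissue (6 of 10) it was 0 (0%) when only the groups compared were fitted. In wild-type core against peri-infarct tissue (5 of 10) it was 0 (0%) with limma-voom, 0 (0%) with only the groups compared and 3 (3.99%) on log2(TPM + 0.1). In wild-type peri-infarct against contralateral tissue (0 of 10) it was 1 (5.03%) with DESeq2, 1 (7.08%) on log2(TPM + 0.1) and 2 (10.6%) with only the groups compared. Knockout core against contralateral tissue (5 of 10) gave 8 (30.2%) with only the groups compared. Knockout core against peri-infarct tissue (0 of 10) gave 2 (4.4%) with DESeq2, 3 (8.24%) on log2(TPM + 1), 3 (6.61%) on log2(TPM + 0.1) and 7 with only the groups compared, of which 6 were higher (21.0%) and 1 lower (17.3% of all genes lower). Knockout peri-infarct against contralateral tissue (0 of 10) gave 7 (14.2%) with only the groups compared. Knockout against wild-type core (0 of 10) gave 1 lower with DESeq2 (0.326% of all genes lower). Smaller moves were 5 with DESeq2 and 7 (6 higher and Myh11 lower) on both TPM scales in wild-type core against contralateral tissue, where 20.3% of all genes were then higher and 40.9% or 39.4% lower, 4 on log2(TPM + 1) in wild-type core against peri-infarct tissue, and 4 with DESeq2 in knockout core against contralateral tissue. The other 4 genotype comparisons gave 0 under each alternative run. With each library left out in turn the counts were 5 to 6, 0 to 6 and 0 to 2 for wild-type core against contralateral, core against peri-infarct and peri-infarct against contralateral tissue, 4 to 7, 0 to 5 and 0 to 6 for the same in the knockout, and 0 to 1 for knockout against wild-type core. The cause was not tested, except that fits of only the groups compared hold fewer samples and left wild-type core replicate 3 out of the knockout fits.

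For the 16 gene values called in the 3 regional comparisons, 101 of 125 values under other settings and 260 of 288 with a library left out kept direction and call, the rest kept direction and lost the call, and 0 reversed. DESeq2 gave an adjusted p to 9 of the 10 genes, not to Tagln, and to 6 in knockout against wild-type contralateral tissue. The lowest counts behind a value were 10 for Des and 34 for Myh11, which limits what can be shown for them.

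With the replicate number as a block the wild-type core against peri-infarct tissue had 0 of 10 genes called, and the block changed no other count. Correlations of deviations between same-numbered libraries cannot decide whether a number marks 1 animal, as each group holds 3 libraries. They were 0.386 to 0.436 where the wild-type peri-infarct libraries met the contralateral ones. Other region pairs of a genotype gave -0.277 to 0.417. Contralateral libraries of wild type and knockout, which cannot share an animal, gave 0.318, 0.355 and -0.135.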
